A study of Mus musculus with 4 samples.

Results

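The 9 genes described here are Lin28a, Lin28b and Dis3l2, which act on the let-7 microRNA family, and Trim71, Hmga1, Hmga2, Igf2bp1, Igf2bp2 and Igf2bp3, genes of early embryos that let-7 is known to repress or that bind RNA in oncofetal programmes. They were picked by name as let-7 regulators and let-7 targets, with earlier results of these libraries known, and each matched 1 of the 55401 gene identifiers in the deposited tables. All 9 passed the filter on low counts, which 16511 genes passed. Because the comparison of fusion with wild-type cells was known when they were picked, their values in it are given as a description, and the 1 count of them past the threshold supports nothing.

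RNA was sequenced in 4 bulk libraries of EB3 mouse embryonic stem cells. The fusion libraries 1 and 2 came from derivatives of EB3 that express NUP98-HOXA9, a leukaemia fusion of a nucleoporin with a homeodomain transcription factor. The wild-type group held the parental EB3 line and EB3-derived cells that carry an empty vector. All 4 were grown on gelatin in serum medium with LIF, the cytokine that maintains the undifferentiated state, and polyadenylated RNA was sequenced. The libraries held 19820401 (fusion 1), 21151729 (fusion 2), 19957932 (parental) and 19021386 (empty vector) estimated counts. The labels give neither the promoter of the fusion nor whether fusion 1 and 2 are distinct clones or cultures. All p-values therefore reflect the spread among these particular libraries, which may be technical. Only the empty-vector library controls for the vector. The stem cell markers fixed for the identity of the cells were present in every library. Their 10 genes summed to 6634 and 6404 CPM (counts normalised for depth with TMM factors) in fusion 1 and fusion 2, against 5350.1 CPM in the parental and 6008 CPM in the empty-vector library.

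LIN28A and LIN28B are RNA-binding proteins that hold back let-7 and bind the loop of its precursors. LIN28A recruits the uridyl transferases TUT4 and TUT7, and the exonuclease DIS3L2 then degrades the uridylated precursor. Mature let-7, which accumulates as stem cells differentiate, pairs through its seed with sites in the 3′ UTRs of mRNAs and lowers them, and Lin28a, Lin28b, Trim71, Hmga2 and Igf2bp1 are classical targets. TRIM71 (LIN-41 in C. elegans) is a ubiquitin ligase and mRNA repressor of stem cells, HMGA proteins are architectural chromatin factors with AT hooks, and IGF2BP proteins bind and stabilise mRNAs through KH domains.

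The sequences through which these genes meet are the let-7 seed, the loop motif GGAG and the seed match CTACCTC. Of 11 mature 5′ forms of the mouse let-7 and miR-98 family in RefSeq (GRCm38.p6), 10 share the seed GAGGUAG. The exception, let-7j, has GAGGUAU. In the forms shown here, which differ only outside the seed, capitals mark bases 2 to 8:
mmu-let-7a-5p: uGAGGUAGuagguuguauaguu
mmu-let-7g-5p: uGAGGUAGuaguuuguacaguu
mmu-let-7i-5p: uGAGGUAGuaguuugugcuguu
mmu-miR-98-5p: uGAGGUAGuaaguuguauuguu

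Of 12 let-7 and miR-98 hairpins, 9 held GGAG, the tetranucleotide that the zinc knuckles of LIN28 are known to contact, between the mature 5′ arm and the 3′ arm. The other 3, those of Mirlet7b, Mirlet7c-2 and Mir98, did not hold these letters there. Hairpins of let-7j and let-7k were not among the 12 and were not searched. The Mirlet7g hairpin, shown as an example with GGAG in capitals, lies on the plus strand within the annotated span of Wdr82 at chr9:106178840-106178927 (GRCm38.p6).
Mirlet7g hairpin: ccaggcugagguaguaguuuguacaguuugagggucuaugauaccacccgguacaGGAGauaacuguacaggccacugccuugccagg

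The match CTACCTC, the reverse complement of the seed, was counted on the sense strand of the longest annotated 3′ UTR of each gene (GENCODE vM21, GRCm38). The longer form CTACCTCA has an A opposite the first base of the microRNA. Of the 9 genes, 8 held at least 1 match, and Dis3l2, whose 3′ UTR is 350 bases, held 0. Trim71, Igf2bp1, Lin28b and Hmga2 held 4 matches each. In Trim71 all 4 had the longer form, in Igf2bp1 3 did, and in Lin28b and Hmga2 1 did. Lin28a held 2, both of the longer form, and Hmga1, Igf2bp2 and Igf2bp3 held 1 each, which in Hmga1 was the shorter form. Among all 21027 genes with an annotated 3′ UTR, 9.0% held a match and 0.057% held 4 or more. Because the genes were picked partly as let-7 targets, their matches describe them and test nothing. The sites shown are 1 for each gene with a match, with the match in capitals and the coding strand written 5′ to 3′:
Lin28a, chr4:134005189-134005211, minus strand: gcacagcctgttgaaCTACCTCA
Lin28b, chr10:45381022-45381044, minus strand: acccgggcgggaagtCTACCTCA
Trim71, chr9:114512472-114512494, minus strand: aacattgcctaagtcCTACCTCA
Hmga1, chr17:27563277-27563299, plus strand: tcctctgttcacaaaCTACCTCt
Hmga2, chr10:120364224-120364246, minus strand: gccgacattcaatttCTACCTCA
Igf2bp1, chr11:95961778-95961800, minus strand: gctgtgcgaagtaaaCTACCTCA
Igf2bp2, chr16:22059473-22059495, minus strand: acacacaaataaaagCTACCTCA
Igf2bp3, chr6:49086787-49086809, minus strand: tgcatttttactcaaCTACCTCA

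**Figure D1:**
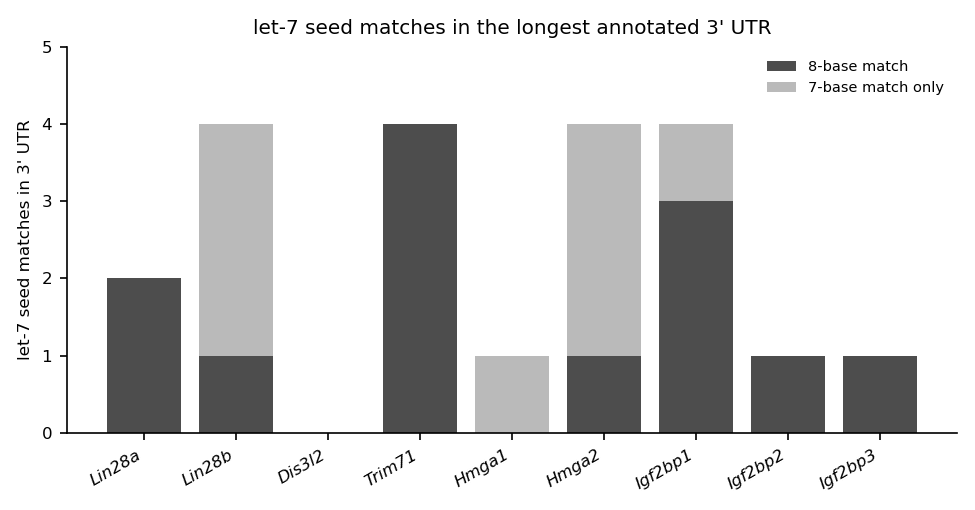
Number of let-7 seed matches (vertical axis) in the longest annotated 3′ UTR of each of the 9 genes, with the 8-base form in dark grey and matches of only 7 bases in light grey. Trim71, Igf2bp1, Lin28b and Hmga2 hold 4 each and Dis3l2 holds 0.

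Lin28a (ENSMUSG00000050966, chr4:134003330-134018841, minus strand) encodes the cytoplasmic LIN28 protein of embryonic stem cells. Its level was 129.6 CPM in fusion 1 and 154 CPM in fusion 2, against 372 CPM in the parental and 281 CPM in the empty-vector library. Both fusion libraries lay below both controls, and the gap between the groups exceeded the difference within either. The log2 fold change, fusion over wild type, was -1.20 (SE 0.21), or 0.435 of the wild-type level, and it was -0.98 over the empty vector alone and -1.39 over the parental line alone. In bulk RNA, a smaller share of cells with a transcript and less of it in each cell cannot be told apart.

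Lin28b (ENSMUSG00000063804, chr10:45376620-45486395, minus strand), the paralogue known for its nucleolar pool in human cells and its part in tumours, was scarcer. It stood at 37.0 and 22.3 CPM in fusion 1 and fusion 2, against 40.8 CPM in the parental and 50.9 CPM in the empty-vector library. The groups did not overlap, but fusion 1 lay close under the parental line and fusion 2 was at 0.603 of the level of fusion 1. Its log2 fold change was -0.63 (SE 0.29), and it ran from -1.05 with fusion 1 left out to -0.31 with fusion 2 left out. It was -0.78 over the empty vector alone and -0.46 over the parental line alone. The summed TPM (abundance normalised for transcript length) of both Lin28 genes was 67.2 in fusion 1 and 76.5 in fusion 2, against 156 in the parental and 137 in the empty-vector library. Lin28b made up 15.7% and 8.4% of that sum in fusion 1 and fusion 2, against 6.8% and 10.6% in parental and empty-vector cells, so its share overlapped between the groups.

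Dis3l2 (ENSMUSG00000053333, chr1:86703808-87050095, plus strand), the exonuclease that acts downstream of LIN28, did not separate the groups. It stood at 20.5 and 24.8 CPM in fusion 1 and fusion 2, against 29.2 CPM in the parental and 22.3 CPM in the empty-vector library. Its log2 fold change of -0.18 (SE 0.25) was 0.02 over the empty vector alone, so its direction depended on the control.

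Trim71 (ENSMUSG00000079259, chr9:114507133-114564369, minus strand), with 4 long seed matches, was among the steadier of the 9. It stood at 292 and 235 CPM in fusion 1 and fusion 2, against 291 CPM in the parental and 348 CPM in the empty-vector library. Fusion 1 and the parental line were level, and the groups overlapped. The log2 fold change was -0.27 (SE 0.19), -0.40 over the empty vector alone and -0.14 over the parental line alone.

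The HMGA genes differed from each other. Hmga1 (ENSMUSG00000046711, chr17:27556497-27563674, plus strand) stood at 359 and 302 CPM in fusion 1 and fusion 2, against 607 CPM in the parental and 480.1 CPM in the empty-vector library. All fusion values lay below all wild-type values, with a log2 fold change of -0.72 (SE 0.20). Its reads were shared with Hmga1b on chromosome 11: 84.0% of the 1552 words of 75 bases in the Hmga1b transcript occur in Hmga1 transcripts, and the estimated counts of the pair add up to whole numbers in every library. Hmga1 took 42.6% and 43.5% of the pair's counts in fusion 1 and fusion 2, against 45.6% and 47.2% in parental and empty-vector cells. Summed to 1 row after the data had been seen, the pair stood at 842 and 693 CPM in fusion 1 and fusion 2, against 1330.1 and 1017 CPM in parental and empty-vector cells. The log2 fold change of the sum was -0.61 (SE 0.21).

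Hmga2 (ENSMUSG00000056758, chr10:120361275-120476469, minus strand), a let-7 target known to escape repression in tumours that lose its 3′ UTR, had the highest log2 fold change of the 9 and also the widest spread. It stood at 83.1 CPM in fusion 1 and 40.0 CPM in fusion 2, against 44.3 CPM in the parental and 13.4 CPM in the empty-vector library. Fusion 2 lay below the parental line, so the groups overlapped. The level in fusion 2 was 0.482 of that in fusion 1, and the level in the empty-vector library was 0.303 of that in the parental one. The log2 fold change of 1.09 (SE 0.56) was 2.20 over the empty vector alone and 0.47 over the parental line alone.

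**Figure D2:**
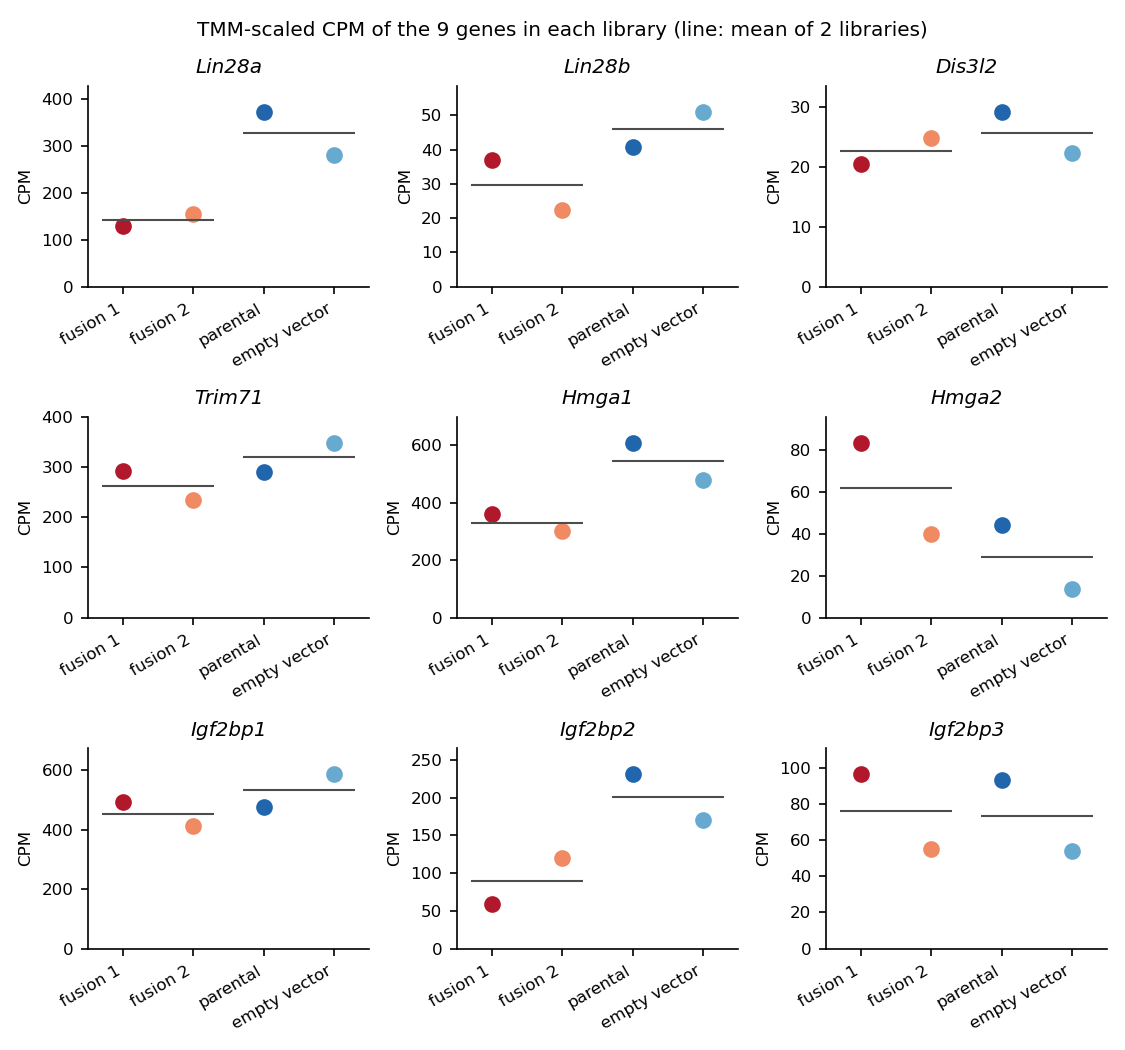
TMM-scaled CPM (vertical axes from 0, a scale for each gene) of the 9 genes in fusion 1, fusion 2, parental and empty-vector libraries; points are libraries and lines are the means of 2 libraries. Lin28a, Lin28b, Hmga1 and Igf2bp2 are the 4 genes whose fusion points both lie below both wild-type points, and Hmga2 is spread from 83.1 to 13.4 CPM.

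The IGF2BP genes, which encode the insulin-like growth factor 2 mRNA-binding proteins, did not move as a family. Igf2bp1 (ENSMUSG00000013415, chr11:95957163-96005940, minus strand) stood at 492 and 412 CPM in fusion 1 and fusion 2, against 478 CPM in the parental and 587 CPM in the empty-vector library. The groups overlapped, since fusion 1 was above the parental line, and the log2 fold change was -0.24 (SE 0.19). Igf2bp3 (ENSMUSG00000029814, chr6:49085223-49214957, minus strand) stood at 96.5 and 55.3 CPM in fusion 1 and fusion 2, against 93.2 and 53.8 CPM in parental and empty-vector cells. Each group held a high and a low library of nearly the same levels, and the log2 fold change was 0.05 (SE 0.34).

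Igf2bp2 (ENSMUSG00000033581, chr16:22059009-22163299, minus strand), the paralogue also known from metabolic tissues of adults, was the IGF2BP gene whose groups did not overlap. It stood at 59.1 CPM in fusion 1 and 120.1 CPM in fusion 2, against 231 CPM in the parental and 170.1 CPM in the empty-vector library. Fusion 2 was 2.03-fold above fusion 1 and still below both controls. The log2 fold change of -1.16 (SE 0.34) was -1.76 with fusion 2 left out, -0.92 over the empty vector alone and -1.36 over the parental line alone. Within the family's summed TPM of 192 and 204 in fusion 1 and fusion 2, against 257 and 267 in parental and empty-vector cells, Igf2bp2 took 13.5% and 25.5% in fusion 1 and fusion 2, against 35.4% in the parental and 26.7% in the empty-vector library. Igf2bp1 took 68.5% and 64.7% in fusion 1 and fusion 2, against 53.1% and 66.3% in parental and empty-vector cells.

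**Figure D3:**
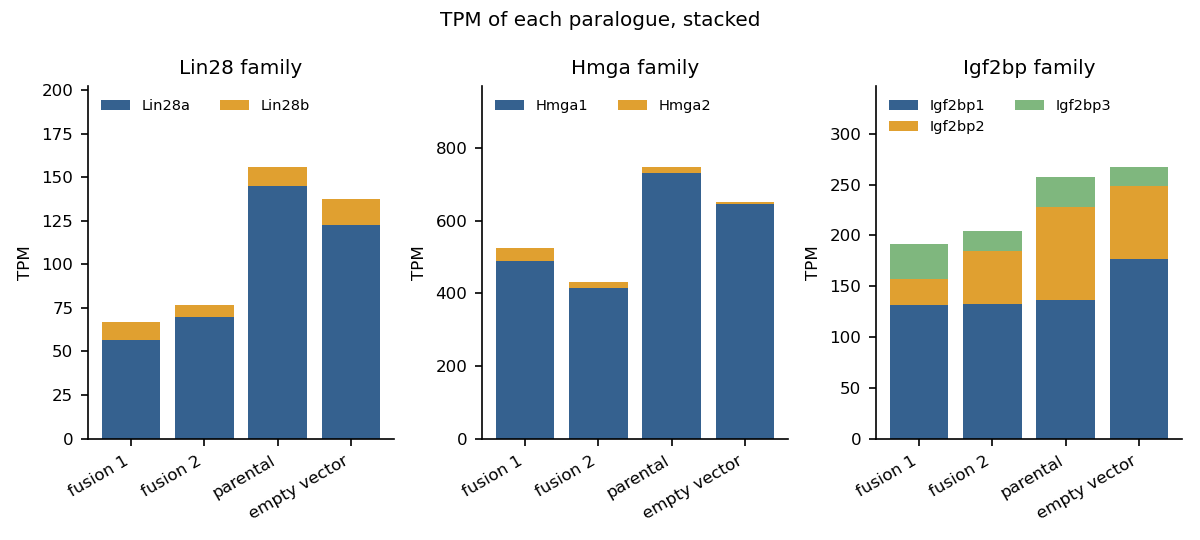
TPM (vertical axes, from 0) of the Lin28, Hmga and Igf2bp paralogues, stacked, in fusion 1, fusion 2, parental and empty-vector libraries. The Lin28 stacks reach 67.2 and 76.5 TPM in fusion 1 and fusion 2, against 156 and 137 TPM in parental and empty-vector cells, and most of each is Lin28a.

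Of the 9 genes, 1 passed an adjusted p of 0.05, Lin28a, which was lower. By edgeR's quasi-likelihood test with Benjamini-Hochberg adjustment over all 16511 genes, 3.42% passed in either direction, 2.83% as higher and 0.581% as lower. Lin28a did not pass without fusion 1, without the parental library, or against either control alone. With fusion 2 left out Igf2bp2 passed in its place, and DESeq2 called Hmga1 and Igf2bp2 beside Lin28a. The groups did not overlap for 4 of the 9, all lower in fusion cells, where 24.2% of all tested genes were lower without overlap, 27.1% were higher and 51.3% were either. The median log2 fold change of the 9 was -0.27 and that of all tested genes was 0.00. Nothing is read from these counts, as the contrast was known when the genes were picked.

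Within the groups, Hmga2 and Igf2bp2 were at least 2-fold apart between the fusion libraries, which 10.3% of 15387 genes were at 1 CPM or more. Between the controls Hmga2 was, as were 8.74% of 14719 genes. At 1.5-fold, Lin28b and Igf2bp3 joined them in the fusion pair, where 24.5% of genes were that far apart, and Igf2bp3 in the control pair, against 22.4% of genes. Igf2bp3 and Hmga2 were both lower in fusion 2 than in fusion 1 and lower in the empty-vector than in the parental library.

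**Figure D4:**
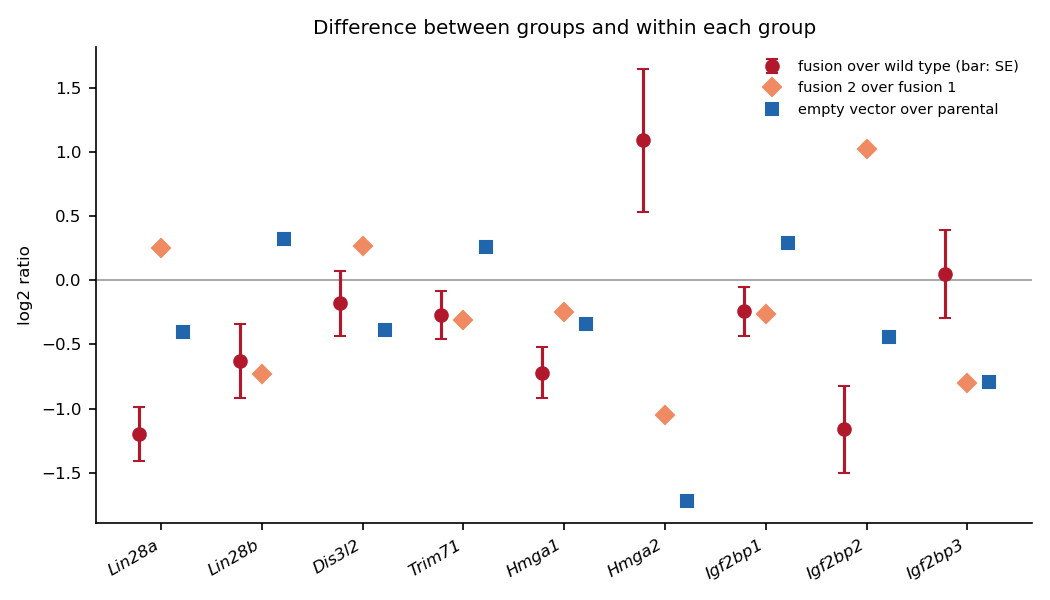
Log2 ratios (vertical axis) of fusion over wild type with its standard error, fusion 2 over fusion 1, and empty vector over parental, for each of the 9 genes. For Lin28a the ratio between groups, -1.20, is larger in size than those within groups, 0.25 and -0.40, while for Hmga2 the ratio of empty vector over parental, -1.72, is larger in size than the ratio between groups, 1.09.

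Levels of different genes were compared by TPM, averaged over the 4 libraries. Hmga1 was highest at 571 TPM and was first in every library. Igf2bp1 followed at 144 TPM and Lin28a at 98.7 TPM. These neighbours overlapped, since Lin28a at 145.1 TPM exceeded Igf2bp1 at 136.72 TPM in the parental line. Igf2bp2 at 60.1 TPM and Trim71 at 45.4 TPM overlapped as well. Below them came Igf2bp3 at 25.7 TPM, Hmga2 at 18.0 TPM, Dis3l2 at 11.6 TPM and Lin28b at 10.6 TPM. The last pair changed places, since Lin28b was above Dis3l2 in fusion 1, at 10.54 against 10.14 TPM, and in the empty-vector library, at 14.62 against 10.76 TPM. The ranges of Igf2bp3 and Hmga2 over the libraries overlapped, but Igf2bp3 was above Hmga2 in every library. Igf2bp2 held the fourth place in fusion 2 and both controls and the seventh in fusion 1. Hmga2 was last in the empty-vector library and sixth or seventh in the others.

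Isoform use was read from the transcript length that RSEM weights by abundance. Trim71 has 1 annotated transcript, so its length could not vary. For the other genes except Igf2bp1 the length varied by a ratio of 1.05 or less over the libraries. Igf2bp1 had a weighted length of 5606.96 bases in fusion 1 and 4816.5 bases in fusion 2, against 4760.18 bases in the parental and 4865.19 bases in the empty-vector library. Its ratio of longest to shortest was 1.18, and 29.2% of 13259 genes with several transcripts had a larger one. These lengths were not tested, and the smallest exact two-sided p for 2 libraries against 2 is 0.333. The 3′ UTR of Igf2bp1 that was searched for let-7 matches has 6337 bases, more than the gene's weighted transcript length in any library. How many of its 4 matches the Igf2bp1 RNA of these cells held was not tested.

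The genes most like Lin28a and Hmga2 were found by the Euclidean distance over the 4 libraries of centred log2 CPM, among 12085 genes. For Lin28a they were Irf1 at a distance of 0.14, Zfp280c at 0.15 and Fancl at 0.16. Irf1, an interferon regulatory factor, stood at 18.7 and 19.5 CPM in fusion 1 and fusion 2, against 50.6 CPM in the parental and 38.9 CPM in the empty-vector library. For Hmga2 they were Igfbp4 at 0.29, Krt18 at 0.34 and Hdac7 at 0.37. Krt18, a keratin of simple epithelia, stood at 64.6 and 33.7 CPM in fusion 1 and fusion 2, against 47.2 and 12.3 CPM in parental and empty-vector cells. Because these genes were picked by their distance over the same 4 libraries, their likeness to Lin28a or Hmga2 follows from the choice.

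The machinery that processes let-7 and acts with it was described by 24 genes. Among them 0 passed edgeR's test (1 at an unadjusted p under 0.05, 0 by DESeq2 and 0 by limma), where 3.42% of all tested genes passed, so that a count of 0 among 24 is near the background. The median log2 fold change was -0.11, with 18 of 24 below 0, where 8307 of all 16511 tested genes were below 0. Without overlap of the groups, 11 of the 24 were lower and 1 was higher, against 24.2% and 27.1% of all tested genes. These shares were not tested. Tut4, which encodes the uridyl transferase that LIN28A recruits, stood at 96.5 and 109.8 CPM in fusion 1 and fusion 2, against 78.3 CPM in the parental and 91.2 CPM in the empty-vector library. Tut7 had a log2 fold change of 0.06 (SE 0.20), and Drosha and Dicer1, the nucleases that cut microRNA precursors, had -0.47 (SE 0.22) and -0.48 (SE 0.21). The most abundant, Hnrnpa1 and Ddx5, RNA-binding cofactors of microRNA processing, had log2 fold changes of -0.30 (SE 0.20) and -0.18 (SE 0.17). Mov10, an RNA helicase of silencing complexes, was the 1 gene under an unadjusted p of 0.05, with a log2 fold change of -0.63 (SE 0.21) and an adjusted p of 0.15. Apart from Hnrnpa1 and Ddx5, these genes were named after their values were seen.

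Let-7 itself was not measured. The same 12 let-7 and miR-98 hairpin genes were listed at 0 in all 4 libraries, which were made from polyadenylated RNA. Of the host transcripts, 3 could be tested and 0 passed edgeR's test (1 at an unadjusted p under 0.05, 0 by DESeq2 and 0 by limma). Huwe1, whose span holds Mir98 and Mirlet7f-2, stood at 762 and 744 CPM in fusion 1 and fusion 2, against 945 and 1015 CPM in parental and empty-vector cells. Wdr82 stood at 184 and 201 CPM in fusion 1 and fusion 2, against 226 and 254 CPM in parental and empty-vector cells. The transcript 3110039I08Rik, a RefSeq synonym of Mir100hg that spans Mirlet7a-2, was near the floor, at 4.96 and 2.78 CPM in fusion 1 and fusion 2, against 1.20 and 1.38 CPM in parental and empty-vector cells.

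Other known let-7 targets changed in both directions. Of 40 listed, 39 were tested; 3 rose and 2 fell, against 2.83% of all tested genes that rose and 0.581% that fell, and 1, Acvr1c, was listed at 0. The median log2 fold change was -0.11. Dusp9, an ERK phosphatase, rose to 619.6 and 457 CPM in fusion 1 and fusion 2, against 69.8 CPM in the parental and 93.4 CPM in the empty-vector library (log2 2.72, SE 0.24, adjusted p = 0.00844). Nr6a1, the orphan nuclear receptor known as germ cell nuclear factor, rose to 339.9 and 271 CPM in fusion 1 and fusion 2, against 97.8 and 82.9 CPM in parental and empty-vector cells (log2 1.76, SE 0.20, adjusted p = 0.0115). Prtg, which encodes the immunoglobulin-family receptor protogenin, rose to 86.2 and 61.6 CPM in fusion 1 and fusion 2, against 22 and 16.5 CPM in parental and empty-vector cells (log2 1.94, SE 0.26, adjusted p = 0.0176). All 3 were higher in both fusion libraries than in either control.

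The targets that fell were Mycn and Cdk6. Mycn, a proto-oncogene of the Myc family, fell to 66.1 and 76.3 CPM in fusion 1 and fusion 2, against 197 CPM in the parental and 388 CPM in the empty-vector library (log2 -2.04, SE 0.32, adjusted p = 0.0278). Cdk6, a kinase of the cell cycle and named after its values were seen, fell to 25.4 and 21.5 CPM in fusion 1 and fusion 2, against 59.7 and 48.7 CPM in parental and empty-vector cells (log2 -1.21, SE 0.22, adjusted p = 0.0378). The most abundant targets, Nap1l1 and Cdc34, had log2 fold changes of -0.30 (SE 0.18) and -0.02 (SE 0.17). Only Dusp9 stayed past the threshold in every setting tried. Prtg and Mycn did not pass without fusion 1, Mycn did not pass without fusion 2, and Cdk6 did not pass without fusion 1, fusion 2 or the parental library, nor by limma. Nr6a1, Prtg and Cdk6 did not pass against the parental line alone, and Prtg and Cdk6 did not pass against the empty vector alone. In their longest 3′ UTR, Nr6a1 held 8 seed matches, the most of any gene, and Prtg held 2, while Dusp9, Mycn and Cdk6 held 0.

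**Figure D5:**
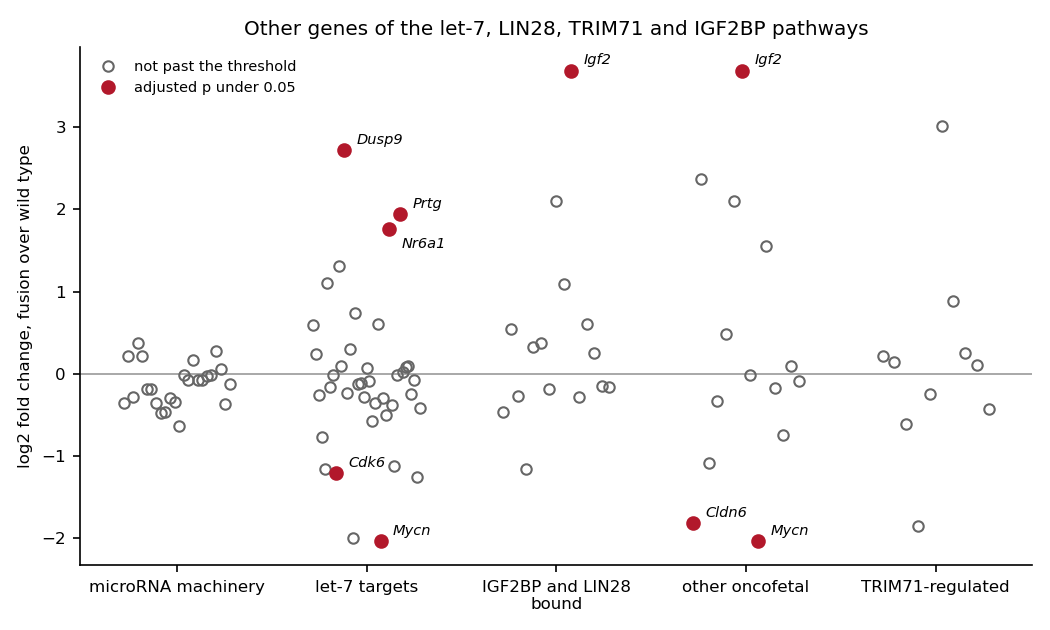
Log2 fold change, fusion over wild type (vertical axis), of each tested gene in 5 lists (horizontal axis), with genes past an adjusted p of 0.05 filled and named; a gene on several lists is drawn in each. Hoxa5 is left out, because its fitted value rests on 0 and 2 counts in the controls; the microRNA machinery lies between -0.63 and 0.38 with 0 called, and the let-7 targets hold 3 that rose and 2 that fell.

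Across all genes, seed matches and calls were set side by side as a description. Among 13967 tested genes with an annotated 3′ UTR, 183 held 2 or more matches, and 16 of these (8.74%) rose and 3 (1.64%) fell. Of the 12489 genes with no match, 2.92% rose and 0.625% fell, and of the 1295 with 1 match, 3.01% rose and 0.541% fell. Of the genes that rose, 4 of the 16 with 2 or more matches, 125 of the 365 with none and 11 of the 39 with 1 had a wild-type mean under 1 CPM. These had little room to fall, and the part of the filter on low counts in the shares that rose was not tested. The median log2 fold change was 0.02, 0.00 and 0.03 in genes with 2 or more, 0 and 1. The 3′ UTRs were also longer with more matches, with medians of 3645, 1043 and 2111 bases in the same order, and the part of length was not tested. The 3 that fell were Lin28a, Tuba4a and Prlr, and the 16 that rose include Nr6a1, Prtg, Igdcc3 and Fignl2, named after their values were seen. Without the 9 genes, 178 with 2 or more matches were left, of which 16 rose and 2 fell. Igdcc3, an immunoglobulin-family receptor related to protogenin, held 2 matches in a 3′ UTR of 538 bases and rose to 100.2 and 45.2 CPM in fusion 1 and fusion 2, against 7.29 CPM in the parental and 8.7 CPM in the empty-vector library (log2 3.18, adjusted p = 0.0147).

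Of 11 genes that TRIM71 is known to regulate, 1 rose and 0 fell, against the 2.83% and 0.581% of all tested genes, and the list's median log2 fold change was 0.14. The gene that rose, Hoxa5, a homeobox gene of the HOXA cluster, had 1218 and 729 counts in fusion 1 and fusion 2, against 0 and 2 counts in parental and empty-vector cells, so that it passed the filter through the fusion libraries. Cdkn1a, which encodes the cell-cycle inhibitor p21 and is a known mRNA target of TRIM71, overlapped between the groups, at 87.0 and 66.1 CPM in fusion 1 and fusion 2, against 42.1 and 96.9 CPM in parental and empty-vector cells. Plxnb2, a semaphorin receptor, had a log2 fold change of 0.25 (SE 0.21). Egr1 and Inhbb had larger values that did not pass, -1.85 (SE 0.47, adjusted p = 0.0849) and 3.01 (SE 0.71, adjusted p = 0.0696), and were named after their values were seen. Each passed when some library was left out: Inhbb without either control, and Egr1 without fusion 2.

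Of 15 transcripts bound by IGF2BP proteins or LIN28, 1 rose and 0 fell, against 2.83% and 0.581% of all tested genes. The list's median log2 fold change was 0.25. The list includes Hmga2, 1 of the 9 genes. Igf2, the imprinted growth factor after which the family is named, rose to 283 and 129 CPM in fusion 1 and fusion 2, against 20.6 and 11.2 CPM in parental and empty-vector cells (log2 3.69, SE 0.46, adjusted p = 0.014). The groups were far apart, though fusion 1 was above fusion 2. The call was lost without the parental library, without the empty-vector library, against either control alone and with no filter on low counts. Actb and Rps13, the most abundant of the list, had log2 fold changes of -0.47 (SE 0.19) and -0.16 (SE 0.17). Myc, stabilised by IGF2BP1, had a log2 fold change of 0.61 (SE 0.36), its level in fusion 1, 105 CPM, being above 49.3 CPM in fusion 2, 43.1 CPM in the parental and 57.6 CPM in the empty-vector library. Myc was named after its values were seen.

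Of 15 other oncofetal genes, 14 were tested; Igf2 rose and Mycn and Cldn6 fell, against 2.83% of all tested genes that rose and 0.581% that fell, and the list's median log2 fold change was -0.05. Cldn6, a tight-junction claudin of embryos and germ cell tumours, fell to 17.8 and 35.8 CPM in fusion 1 and fusion 2, against 112 and 77.3 CPM in parental and empty-vector cells (log2 -1.82, SE 0.36, adjusted p = 0.0459). Cldn6 did not pass with library totals, without fusion 1, without the parental or the empty-vector library, or against either control alone. Peg10, an imprinted gene derived from a retrotransposon, stood at 2145 and 903 CPM in fusion 1 and fusion 2, against 590.1 and 448 CPM in parental and empty-vector cells (log2 1.55, SE 0.39, adjusted p = 0.0807). Sall4, a zinc finger factor of stem cells, had a log2 fold change of 0.10 (SE 0.16).

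Markers of the stem cells and of other cell states were read in the same libraries. By edgeR's test, 2.83% of all tested genes rose and 0.581% fell, as a background for the marker lists. All 10 primitive endoderm markers rose, of which 5 reached a mean of 1 CPM in wild-type cells. They summed to 744 and 756 CPM in fusion 1 and fusion 2, against 88.2 CPM in the parental and 75 CPM in the empty-vector library. Of 7 primed epiblast markers 3 fell by edgeR's test, where DESeq2 called 4 and limma 1. Of the 7, 6 had a log2 fold change below 0. The list summed to 229.9 and 312 CPM in fusion 1 and fusion 2, against 559 and 747 CPM in parental and empty-vector cells. Most of each sum was Dnmt3b, at 172 and 231 CPM in fusion 1 and fusion 2, against 405 and 517 CPM in parental and empty-vector cells. The stem cell markers had 0 of 10 past edgeR's test (4 at an unadjusted p under 0.05, 3 by DESeq2 and 0 by limma). Of 7 tested fibroblast markers 1 rose, Pdgfrb, and 5 had a log2 fold change above 0 and 2 below. The list summed to 91.9 and 91.3 CPM in fusion 1 and fusion 2, against 45.8 and 32.5 CPM in parental and empty-vector cells. Pdgfrb alone made up 44.6 and 35.5 CPM in fusion 1 and fusion 2, against 5.26 and 5.2 CPM in parental and empty-vector cells. Of 5 tested neural markers 1 rose, Sox1, while Pax6, Nes and Map2 had log2 fold changes of -2.08, -1.33 and -1.30 that did not pass edgeR's test, though their groups did not overlap. DESeq2, which called 1363 genes in all where edgeR called 564, called 4 of the 5, and limma called 0. The neural list summed to 125 and 141 CPM in fusion 1 and fusion 2, against 170.2 and 164 CPM in parental and empty-vector cells. Sox17 of the endoderm list was at 0 in parental cells, and Lum of the fibroblast list and Neurog2 and Zic1 of the neural list did not pass the filter on low counts. The part of these cell states in the levels of Lin28a, Hmga1, Igf2bp2 or the other genes was not tested. The median log2 ratio of genes on each chromosome that holds 1 of the 9 genes lay between -0.08 and 0.08 in every library.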

How the data were processed

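Polyadenylated RNA of 4 libraries was measured, 2 with the fusion and 2 wild type. The authors deposited a gene table for each library with expected counts, TPM, FPKM and transcript lengths (other), per the file headers. The submitters' processing notes name the build GRCm38 (mm10) and the tools RSEM 1.3.3, STAR 2.7.10a and DESeq2 1.36.0. For strand setting and annotation release, nothing is given in the sources used here. RSEM shares out reads that map to several genes, so 9.16% to 10.18% of the deposited expected counts are not whole. The deposited FPKM values were not tested.

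Of 55401 identifiers, 55141 (99.5%) matched GENCODE vM21. After rounding, expected counts went into edgeR 4.0.16 under R 4.3.3 (TMM, filterByExpr at a minimum count of 10, robust quasi-likelihood fit), two-sided, with Benjamini-Hochberg adjustment over the 16511 genes kept and a call at 0.05. There were 2 residual degrees of freedom, and the common biological coefficient of variation was 25.6%. An SE is the size of the log2 fold change over the square root of its F statistic. Pairs of libraries were compared with a prior count of 2. The fit was tested on simulated data. Alternatives were DESeq2 1.42.0, limma 3.58.1 on log2 of the deposited TPM plus 1, other scalings and filters, each control alone and each library left out. Tables and plots used python 3.11.15, pandas 2.3.3 and matplotlib 3.10.9.

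The members and lists were chosen with earlier results of these data known. Named were all 9 members; in each pathway list up to 4 genes past the threshold by size of change and the 2 highest in mean TPM; and the 3 genes nearest to the members with the highest and lowest fold change. Host genes of let-7 were matched by symbol or RefSeq synonym. A gene of the marker lists is not reported here.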

Additional observations from a re-analysis of the deposited data

How the results depend on the processing

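The members had at least 252 counts in every library, and each group held 2 libraries. The calls over all genes were 1946 with no filter, 1363 by DESeq2's Wald test, 82 against the empty vector alone, 104 against the parental line alone, and 163 to 552 with 1 library left out, the lowest without fusion 1, against 564. In the same order, the members called, 1 in all 4 libraries, were 3, 3, 0, 0 and 0 to 1. Let-7 targets, 5 in all 4 libraries, were 9 with no filter, 9 by DESeq2, 2 against the parental line and 2 to 6 with 1 library left out. The 1 TRIM71-regulated gene became 2 by DESeq2, by limma on log2(TPM + 1) and against the parental line, and 1 to 2 with 1 library left out. The 1 IGF2BP- or LIN28-bound gene, Igf2, was joined by Ccnd1, which was lower, to make 2 by DESeq2. With no filter, 2 were called, Ccnd1 as lower and H19 as higher, and Igf2 was not. Igf2 was also lost against either control alone and without either control library. Of the 3 other oncofetal genes, 2 were among the 5 called with no filter, where Igf2 was lost. All 3 were among the 6 called by DESeq2. The set also changed against either control alone and with any library left out. The 0 machinery genes became 1 with no filter, Mov10. Without a filter more genes enter the fit; for the other shifts the cause was not tested. At 1.5-fold in place of 2-fold, members apart were 4 in place of 2 between the fusion libraries and 2 in place of 1 between the controls; at 5 CPM both counts were as at 1 CPM. Over 13 alternatives the log2 fold change kept its sign in 13 for Lin28a (-1.41 to -0.98), Lin28b, Trim71, Hmga2 (0.45 to 2.20), Igf2bp1 and Igf2bp2 (-1.76 to -0.74), in 14 of 14 for Hmga1, where summing it with Hmga1b was added after seeing the data, in 11 for Dis3l2 and in 10 for Igf2bp3. No paired analysis was possible because the wild-type libraries carry no replicate numbers in the labels.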
